A study of Mus musculus with 4 samples.

Results

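Regulatory T cells expressing the transcription factor Foxp3 were examined in 4 transplanted mouse mammary tumours, 2 grown in WT hosts and 2 in hosts lacking interleukin 1α. They were picked from single-cell RNA counts by their own transcripts, counted as UMIs, the molecular barcodes that mark single captured transcripts. A barcode was kept if it had 500 or more mouse UMIs and 250 or more genes, with no more than 20% of its UMIs from mitochondrial genes. A kept barcode was a regulatory T cell when it held at least 1 UMI of Cd3d, Cd3e or Cd3g, at least 1 of Foxp3, none of Cd8a or Cd8b1, fewer than 2 of the proliferation genes Mki67 and Top2a together, and fewer than 3 of the phagocyte gene Lyz2. The rule found 432 cells among 14555 kept barcodes (2.97%), with 188 and 156 in WT replicates 1 and 2, and 26 and 62 in IL1α-/- replicates 1 and 2. Because UMIs of these 9 genes chose the cells, their levels are given as a description and were not tested.

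Regulatory T cells are the CD4 T cells that hold other lymphocytes in check. Foxp3 fixes their identity, the high-affinity interleukin 2 receptor chain Il2ra lets them take up interleukin 2 made by their neighbours, and they restrain other cells through contact receptors such as Ctla4, through cytokines and by competing for growth factors. In tumours they are often numerous and activated, and many tissue regulatory T cells carry Il1rl1, the receptor for interleukin 33, a cytokine of the interleukin 1 family.

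All 4 hosts were FVB/NJ mice aged 6 to 8 weeks that received 2000000 H605 cells, a HER2-positive mammary tumour line, into the mammary pad. IL1α-/- hosts lacked Il1a and WT hosts did not, while the transplanted cells of both groups came from the same line, which no label describes as lacking Il1a. Tumours were taken at day 14, digested, depleted of red cells and enriched for live cells before droplet capture, and no sort for T cells is described. Each tumour is 1 library, so p-values between genotypes describe the spread between 2 tumours per genotype. Comparisons of 2 kinds of cell were made within tumours, and their p-values describe how the difference between the kinds varies over the 4 tumours. The labels state that the tumours were collected as 2 pairs on separate days but do not say which numbers share a day.

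The libraries differed in depth. They held 6704859 to 28999819 mouse UMIs, with both IL1α-/- libraries below both WT libraries, and the median kept barcode held 1361 and 2902 UMIs in IL1α-/- tumours against 3143 and 4209.5 in WT tumours. Il1a gave 67 and 112 UMIs in all kept barcodes of WT tumours and 1 and 0 in those of IL1α-/- tumours, 76.8-fold lower per UMI (exact 95% counting interval 13.6 to 3051). Any 2 libraries shared 0 to 6 cell barcodes. Intervals here and below cover counting error only.

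Markers of the selected cells matched the label. The regulatory T cells carried Ikzf2, which encodes the transcription factor Helios, in 90.4% and 85.3% of cells of the WT tumours and in 73.1% and 74.2% of those of the IL1α-/- tumours. Il2ra was detected in 71.3%, 78.8%, 69.2% and 66.1% of cells in that order. The costimulatory receptor gene Tnfrsf4 was detected in 83.0%, 85.3%, 61.5% and 62.9%, and the inhibitory receptor gene Ctla4 in 82.4%, 86.5%, 73.1% and 91.9%. In Lyz2-positive phagocytes without Cd3, a cell type that should lack these genes, the shares were 0% to 6.10% for Ikzf2, 0% to 0.505% for Il2ra, 0% to 1.35% for Tnfrsf4 and 0.337% to 3.59% for Ctla4. The median phagocyte held 4388, 4928.5, 1797.5 and 4039 UMIs, more than the median regulatory T cell of the same library at 2566.5, 3429.5, 1473 and 1858. None of the 377, 594, 94 and 223 phagocytes held a Foxp3 UMI, which allows shares of up to 0.796%, 0.505%, 3.19% and 1.35%. Cd4 itself was poorly captured and was seen in 30.9%, 46.8%, 15.4% and 37.1% of the regulatory T cells, so it was not part of the rule.

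The edges of the rule were soft. Foxp3 was on at least 1 UMI in 235 and 254 kept barcodes of WT tumours and in 43 and 112 of IL1α-/- tumours. Of the regulatory T cells, 92, 68, 18 and 30 held exactly 1 Foxp3 UMI, and the highest cell held 7, 8, 3 and 4. Just outside stood 92, 72, 25 and 35 cells with Cd3, no Cd8 and no Foxp3 UMI that carried both Il2ra and Ikzf2. The proliferation limit removed 27 and 59 otherwise fitting cells of WT tumours and 3 and 8 of IL1α-/- tumours, which is 12.3% and 26.8% against 10.3% and 11.1% of the Foxp3 cells with Cd3 and without Cd8. Cd8 removed 10, 29, 12 and 37 Foxp3 barcodes, a larger part of them in the IL1α-/- tumours. Cd8 RNA in barcodes of at most 100 UMIs, taken here as free RNA, stood at 256 UPM, meaning UMIs per 1000000 UMIs without further scaling, in both IL1α-/- libraries against 41.4 and 67.4 UPM in the WT libraries, and its part in that removal was not tested.

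Other cell types left traces in a few of the selected barcodes. At least 5 UMIs of the markers of another cell class were found in 20 and 7 regulatory T cells of WT tumours and in 1 and 1 of IL1α-/- tumours. In WT replicate 1, 13 of these carried natural killer markers. Fibroblast markers (Col1a1, Col1a2, Col3a1, Dcn, Pdgfra, Lum) summed to 374 UMIs in WT replicate 1, of which 312 lay in 1 cell, and to 565 UMIs in WT replicate 2, of which 533 lay in 1 cell, while the IL1α-/- tumours held 2 and 5. The summed level of the list was 605 and 850 UPM in WT tumours and 50.1 and 38.5 in IL1α-/- tumours, where 4 and 3 of its 6 genes were at 0. Phagocyte markers summed to 33, 50, 0 and 4 UMIs and neutrophil markers to 2, 4, 0 and 0. Tumour epithelial markers summed to 246, 50, 7 and 11 UMIs, with 141 in 1 cell of WT replicate 1. Their member Epcam was detected in 16.5%, 19.2%, 15.4% and 12.9% of the regulatory T cells. In Foxp3-negative Cd3 cells with a Cd4 UMI and no Cd8 UMI it was detected in 2.43%, 2.96%, 0% and 1.07%. The source of these Epcam UMIs was not tested. Some of the results below are given with and without these cells, and the others include them.

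Fewer regulatory T cells were found in the IL1α-/- tumours by every denominator. They made up 4.70% (95% Clopper-Pearson interval 4.06 to 5.40) and 3.89% (3.32 to 4.54) of kept barcodes in the WT tumours, against 0.809% (0.529 to 1.18) and 1.86% (1.43 to 2.38) in the IL1α-/- tumours. Among barcodes with Cd3 that met the same proliferation and Lyz2 limits, they were 12.8% and 11.01% against 1.61% and 3.61%. Among CD4 T cells, meaning regulatory T cells together with Foxp3-negative cells that had a Cd4 UMI and no Cd8 UMI, they were 39.5% and 36.6% against 17.7% and 18.1%. A Cd4 UMI was asked only of the Foxp3-negative cells, while 30.9%, 46.8%, 15.4% and 37.1% of the regulatory T cells held one. The shares of CD4 T cells are therefore higher than under an equal demand and move with the capture of Cd4. The 2 groups did not overlap in any of the 3 shares. The means were 4.30% ± 0.569 and 1.33% ± 0.742 of kept barcodes, 11.9% ± 1.28 and 2.61% ± 1.41 of Cd3 cells, and 38.1% ± 2.03 and 17.9% ± 0.312 of CD4 T cells (SD, n = 2 tumours each). Reassigning the 4 tumours in all 6 ways, a two-sided exact permutation test gave p = 0.333 for each denominator, the smallest value it can give here, so this design cannot reach the 0.05 threshold.

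The share of Cd3 cells is set by both counts. Foxp3-negative CD4 T cells numbered 288, 270, 121 and 280, and CD8 T cells 146 and 231 in WT tumours against 804 and 653 in IL1α-/- tumours. The share of CD4 T cells does not count CD8 T cells. Foxp3 RNA was also read without a Foxp3 call on single cells, over all Cd3 cells that met the proliferation and Lyz2 limits. Their sums held 78.5 and 56.3 Foxp3 UPM in WT tumours and 19.9 and 26.8 in IL1α-/- tumours. Foxp3 UMIs also chose the regulatory T cells, so this value describes largely the same transcripts and is no separate support for the shares. Ikzf2, which was not part of the rule, stood in the same sums at 523 and 317 UPM against 205 and 190. CD8 T cells are part of these sums, so both values also move with their number. Whether there were fewer regulatory T cells per tumour, or more of the other cells beside them, cannot be told from shares of captured cells.

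A Foxp3 UMI is easier to catch in a deeper cell, so the shares were also taken at a fixed 1000 UMIs per cell, leaving out shallower cells. Regulatory T cells were then 2.70% and 2.00% of kept barcodes in WT tumours against 0.563% and 1.46% in IL1α-/- tumours. They were 7.99% and 5.86% against 1.12% and 2.83% of Cd3 cells, and 43.8% and 34.3% against 18.6% and 23.2% of CD4 T cells. The groups remained apart at equal depth for each of the 3 shares, while the difference in the share of kept barcodes shrank from -2.96 to -1.34 percentage points.

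**Figure D1:**
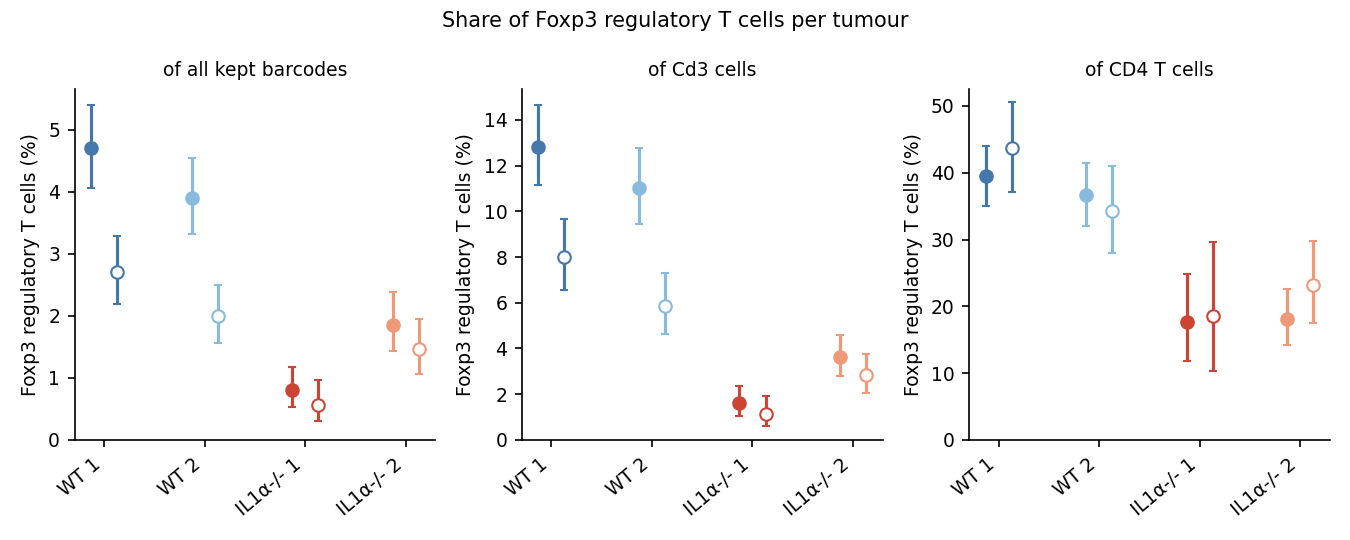
Share of Foxp3 regulatory T cells per tumour (percent, y axes) among all kept barcodes, Cd3 cells and CD4 T cells, for 2 WT and 2 IL1α-/- tumours (x axes). Filled points are cells as deposited and open points are cells thinned to 1000 UMIs, bars are exact 95% binomial intervals, and both IL1α-/- tumours lie below both WT tumours in each panel.

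To see what sets the cells apart from the CD4 T cells beside them, the summed counts of regulatory T cells and of Foxp3-negative CD4 T cells were compared within the 4 tumours. Regulatory T cells were higher in 251 of 6347 tested genes (3.95%) and lower in 302 (4.76%), together 8.71%, in edgeR's quasi-likelihood test at an adjusted p under 0.05, and 19.1% passed at an unadjusted p under 0.05. Over all tested genes, 10% were higher and 15.6% lower in 4 of 4 tumours. Without WT replicate 1 or WT replicate 2, 316 and 342 genes were called in place of 553. Some Foxp3-negative CD4 T cells may be regulatory T cells whose Foxp3 was missed, since 25, 26, 10 and 10 of them carried both Il2ra and Ikzf2. Of the 13 tested genes in a list of regulatory T cell identity genes, 11 were higher and none was lower, with a median log2 difference of 1.33 against -0.02 over all tested genes.

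Ikzf2 showed the largest of these identity differences after Lrrc32. Its level was 1980 and 1371 CPM in the regulatory T cells of WT tumours, and 1559 and 2096 CPM in those of IL1α-/- tumours. CPM are counts per 1000000 UMIs of the genes that passed the low-count filter of the comparison, with edgeR's scaling between sums. The CPM of the same cells therefore differ between comparisons. The Foxp3-negative CD4 T cells held 279, 195, 289 and 109 CPM in that order, below the regulatory T cells in 4 of 4 tumours (log2 difference 3.09, SE 0.20, adjusted p = 1.19e-08). Lrrc32 encodes the surface protein GARP, which holds latent TGFβ on regulatory T cells. It stood at 65.99, 46.3, 65.9 and 102 CPM against 6.44, 6.39, 18.8 and 6.93 CPM (log2 difference 3.13, SE 0.35, adjusted p = 9.38e-06). Izumo1r, the gene of folate receptor 4, a surface marker of regulatory T cells chosen for mention after its values were seen, stood at 510, 605, 483 and 641 CPM against 114, 133, 87.96 and 114 CPM, so its levels were close between tumours and apart between cell kinds (log2 difference 2.28, adjusted p = 7.80e-09).

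The surface receptors of activated regulatory T cells followed. Il2ra stood at 919, 854, 944 and 993 CPM against 240, 428, 452 and 352 CPM (log2 difference 1.40, adjusted p = 5.73e-06). Tnfrsf4 was higher by 1.73 on the log2 scale (adjusted p = 2.28e-07), Tnfrsf18, which encodes the costimulatory receptor GITR, by 1.33 (adjusted p = 1.97e-06), and Ctla4 by 1.26 (adjusted p = 7.37e-05). Tnfrsf9, which encodes 4-1BB and marks T cells stimulated through their antigen receptor, stood at 515, 475, 747 and 1071 CPM against 92.3, 115, 258 and 152 CPM (log2 difference 2.29, adjusted p = 6.61e-08). Klrg1, a receptor of short-lived effector T cells and of tissue regulatory T cells, was higher by 2.41, and Itgae, the integrin chain that binds epithelial cadherin, by 2.74. Itgb8, the integrin chain that releases active TGFβ from its latent form, was higher by 2.66 (adjusted p = 1.07e-05). Among molecules of suppression, the protease gene Gzmb stood at 90.7, 292, 286 and 649 CPM against 30.0, 26.5, 50.3 and 116 CPM (log2 difference 2.58, adjusted p = 7.38e-07).

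Other genes higher in the regulatory T cells lay outside the identity list. The guanylate-binding protein genes Gbp5 and Gbp3, which interferon γ induces, were higher by 2.40 and 2.31. Of 14 tested interferon-stimulated genes 7 were higher with none lower, against 3.95% and 4.76% of all tested genes. Cxcl10, the chemokine that draws cells carrying Cxcr3, was higher by 3.05 (adjusted p = 5.30e-05), but rested on 10, 8, 4 and 10 regulatory T cells, of which 1 cell held 48.8% and 48.1% of the UMIs in the WT tumours. Myb, a transcription factor of effector regulatory T cells, was higher by 2.63, Rapsn by 2.82 and Ankrd55 by 2.35.

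What the regulatory T cells lacked was the type 2 cytokine programme of their neighbours. Il13 gave 471, 1050, 55 and 267 UMIs in the Foxp3-negative CD4 T cells and 0, 3, 0 and 0 in the regulatory T cells, 280-fold lower per UMI (exact 95% counting interval 95.8 to 1361). Il4 gave 109, 366, 13 and 131 UMIs against 0, 1, 0 and 0, 283-fold lower (50.5 to 11180). Il5 gave 36, 116, 23 and 36 UMIs against 0 in all 4 tumours, at least 32.1-fold lower when set against 3 counts over the 4 sums. All 3 are cytokines of T helper 2 cells. In the helper cytokine and lineage list 5 of 8 tested genes were lower with none higher, against 4.76% and 3.95% of all tested genes. Gata3, the transcription factor that directs T helper 2 cells and is also used by tissue regulatory T cells, was lower in 4 of 4 tumours but still present, at 267, 188, 43.9 and 156 CPM against 477, 492, 264 and 287 CPM (log2 difference -1.13, adjusted p = 2.01e-04).

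Single genes known from T cell help and memory were also lower. In the list of resting and recirculating T cell genes 3 of 10 tested were lower and none higher (median -0.26). Of all tested genes, 4.76% were called lower and 3.95% higher. Cd40lg, the ligand by which T cells help B cells and dendritic cells, stood at 14.8, 10.8, 43.9 and 7.82 CPM against 146, 117, 251 and 200 CPM (log2 difference -3.39, adjusted p = 9.22e-08). Tcf7, a transcription factor of resting and memory T cells, stood at 37.9, 24.7, 43.9 and 7.82 CPM against 181, 145, 245 and 244 CPM (log2 difference -2.60, adjusted p = 1.04e-06). The log2 difference was -3.68 for the chemokine gene Ccl1, -3.66 for Tnfsf8, which encodes CD30 ligand, and -3.12 to -3.40 for Fam213a, Hlf, Ly6g5b and Sema4a. Ffar2, a receptor for short-chain fatty acids, gave 3 UMIs in all regulatory T cells against 83, 12.6-fold lower per UMI (exact 95% counting interval 4.17 to 62.5), and the chemokine receptor gene Ccr1 gave 4 against 82, 9.36-fold lower (3.52 to 35.2). The chemokine receptor gene Cxcr6, also chosen after its values were seen, was lower at a log2 difference of -2.20 (adjusted p = 8.06e-07), and the inhibitory receptor gene Pdcd1 at -1.44 (adjusted p = 1.27e-04). The 4 Foxp3-negative values lay above the 4 regulatory T cell values for both.

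**Figure D2:**
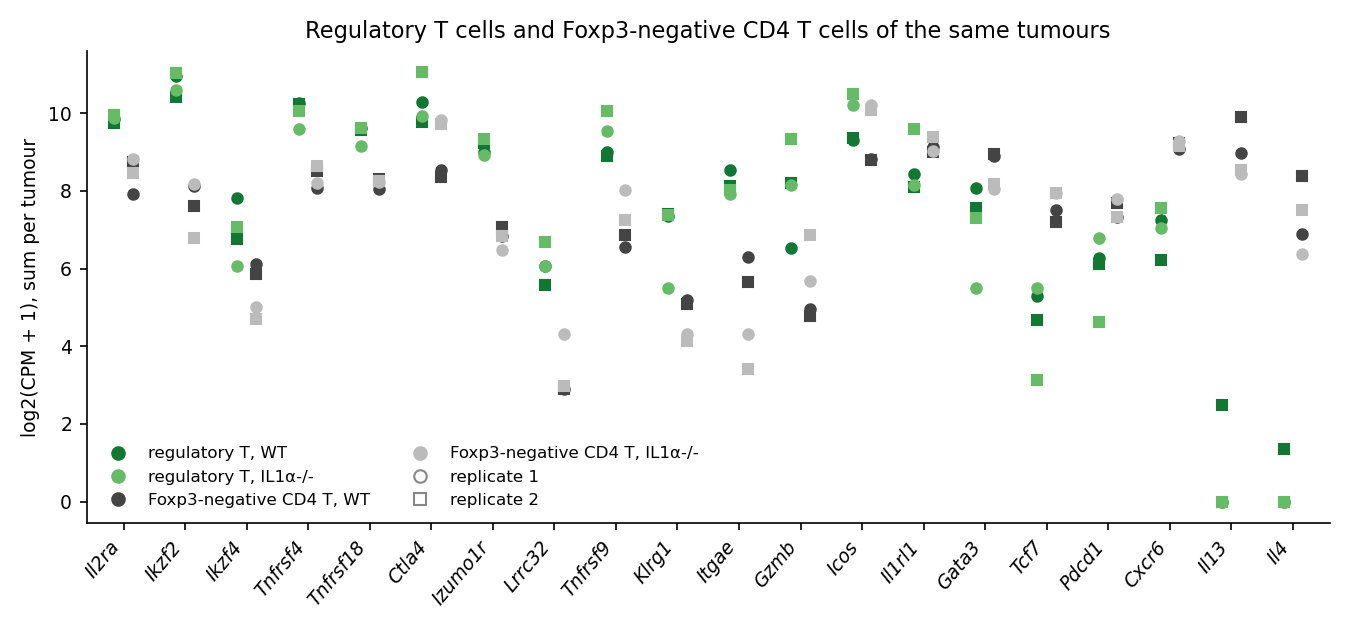
Level of 20 genes as log2(CPM + 1) of the counts summed per tumour (y axis) in regulatory T cells (green) and Foxp3-negative CD4 T cells (grey) of the same 4 tumours, with circles for replicate 1 and squares for replicate 2. Ikzf2, Lrrc32, Izumo1r and Tnfrsf9 separate the 2 kinds upward and Il13, Il4, Tcf7 and Cxcr6 downward, while Icos and Il1rl1 lie close together.

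For several genes often named for tumour regulatory T cells the test was not passed, or the call depended on which libraries or cells were used. Il1rl1 stood at 343, 272, 286 and 774 CPM in regulatory T cells and 563, 515, 521 and 665 CPM in Foxp3-negative CD4 T cells (log2 difference -0.54, adjusted p = 0.0509). It was called lower without IL1α-/- replicate 2, its highest value (-0.82, adjusted p = 2.46e-04), without cells scored as doublets (-0.50, adjusted p = 0.0179) and without barcodes holding markers of another class (-0.48, adjusted p = 0.0375). Il10 stood at 92.4, 66.4, 87.9 and 62.6 CPM against 38.6, 61.2, 87.96 and 312 CPM (log2 difference -0.08, adjusted p = 0.957), and Areg, which encodes the repair factor amphiregulin, at 153, 159, 43.9 and 1345 CPM against 131, 145, 547 and 441 CPM (log2 difference 0.36, adjusted p = 0.643). Icos was higher in 4 of 4 tumours by 0.40 (adjusted p = 0.0360). Without WT replicate 1, WT replicate 2 or IL1α-/- replicate 2 the log2 difference was 0.38 to 0.41 and missed the threshold (adjusted p = 0.119, 0.151 and 0.0589), and the call was kept without IL1α-/- replicate 1, doublets or barcodes holding markers of another class (0.47 to 0.49, adjusted p = 0.00342 to 0.0141). Tigit was higher by 1.65 (adjusted p = 0.0433) on only 11, 14, 0 and 7 UMIs, and by 1.37 without passing when IL1α-/- replicate 2 was left out (adjusted p = 0.121). Nt5e, one of the enzymes that make adenosine, was higher by 0.76 (adjusted p = 0.0110), Entpd1, the enzyme upstream of it, by 0.66 without passing (adjusted p = 0.0519), and without WT replicate 1 Nt5e was at 0.60 without passing (adjusted p = 0.176). Ccr8, a chemokine receptor described on tumour regulatory T cells, gave 6, 5, 1 and 0 UMIs and was too low to test.

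Within the regulatory T cells, markers were unevenly shared among cells. Il2ra and Ikzf2 were found together in 126 of 188, 108 of 156, 14 of 26 and 33 of 62 cells. Il1rl1, Areg and Klrg1 marked smaller groups, with Il1rl1 in 44.1%, 45.5%, 15.4% and 40.3% of cells, Klrg1 in 27.7%, 32.7%, 7.69% and 19.4%, and Areg in 15.4%, 17.3%, 7.69% and 30.6%. Il1rl1 and Klrg1 occurred together in 28, 33, 1 and 7 cells, and Il1rl1 and Areg together in 18, 18, 2 and 13. In phagocytes the shares were 1.06% to 4.51% for Il1rl1, 0% to 0.168% for Klrg1 and 0% to 1.79% for Areg. Il7r, a receptor often low on regulatory T cells, was found in 75.0%, 59.0%, 30.8% and 74.2% of cells and differed from the Foxp3-negative CD4 T cells by -0.05 on the log2 scale (adjusted p = 0.953). IL1α-/- replicate 1, with the lowest shares of Il1rl1, Klrg1, Areg and Il7r, was also the shallowest library. With cells thinned to 1000 UMIs, Il1rl1 was seen in 21.4%, 19.2%, 7.69% and 33.3% and Areg in 7.14%, 6.85%, 0% and 24.4% of the 98, 73, 13 and 45 cells left.

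Between host genotypes, the regulatory T cells of IL1α-/- tumours had higher levels of 25 genes and lower levels of 11 among 4959 tested (0.504% and 0.222%, together 0.726%, edgeR's quasi-likelihood test, adjusted p under 0.05). At an unadjusted p under 0.05, 634 genes (12.8%) passed. Both IL1α-/- tumours lay above both WT tumours for 19.3% of tested genes and below them for 27.3%. The higher genes included members of the AP-1 family (Fosl2, Fosb), the transcription factors Irf4 and Irf1, the insulin receptor substrate Irs2 and the costimulatory receptor Icos. The lower genes were Ramp1, Cd74, 3 mitochondrial genes, and 6 genes whose UMIs lay mostly in a few barcodes that also held markers of fibroblasts or, for Tcf4, of dendritic cells. The summed regulatory T cells held 618489 and 664961 UMIs in WT tumours against 39883 and 129713 in IL1α-/- tumours, so many values of IL1α-/- replicate 1 rest on under 10 UMIs. In summed counts, fewer cells with a transcript and less of it per cell cannot be told apart.

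The calls leaned on single libraries. Without IL1α-/- replicate 2, which leaves the 26 cells of replicate 1 as the only IL1α-/- sum, 11 genes were called, and 5 of the 36 were among them: Ramp1, Cd74, mt-Co3, Sparc and Col1a2. Without IL1α-/- replicate 1, 173 genes were called, which included all 36. Without WT replicate 1 the count was 81, with 30 of the 36, and without WT replicate 2 it was 34, with 19 of the 36. On simulated counts of this size, 54.8% of 93 genes changed 4-fold and 4.30% of 93 changed 2-fold were called, and none of 4397 unchanged genes. These counts were drawn with the spread that edgeR fitted along the expression level and held no barcodes of another cell class. They therefore do not show how many of the 36 calls are false.

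Ramp1 had the clearest difference between hosts. It encodes a partner protein that turns the calcitonin receptor-like receptor into the receptor for the neuropeptide CGRP, and it lies on chromosome 1 from 91179822 to 91225196 (GRCm38). The regulatory T cells held 254 and 302 Ramp1 UMIs in WT tumours, spread over 87 and 85 cells, and 2 and 8 UMIs in 2 and 6 cells in IL1α-/- tumours. As CPM this was 450 and 497 against 50.3 and 65.7 (log2 fold change -2.94, SE 0.39, adjusted p = 0.00232), and summed per genotype it was 7.35-fold lower (exact 95% counting interval 3.97 to 15.4). Both IL1α-/- tumours lay far below both WT tumours. The highest cell held 7.09% and 5.96% of the WT UMIs, and without the barcodes holding markers of another class the log2 fold change was -3.32 (adjusted p = 0.00165). Ramp1 was called without each of the 4 libraries in turn (adjusted p = 7.27e-08 to 0.0122). The Foxp3-negative CD4 T cells showed the same direction, with 915 and 859 UPM in WT tumours and 226 and 188 in IL1α-/- tumours. The genotype difference was not shown to differ between the 2 kinds (log2 difference of differences -0.83, SE 0.41, adjusted p = 0.836). Free RNA held 74.1 and 82.7 UPM in WT libraries and 25.6 and 35.9 in IL1α-/- libraries.

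Cd74, the invariant chain of MHC class II, stood at 510 and 296 CPM in WT tumours against 25.2 and 107 CPM in IL1α-/- tumours (log2 fold change -2.25, SE 0.46, adjusted p = 0.0313). It was found in 78 and 52 WT cells, of which the highest held 21.2% and 40.6% of the UMIs. Cd74 was also abundant in free RNA, at 1907 and 3727 UPM in WT libraries and 1542 and 2042 in IL1α-/- libraries. Without the barcodes holding markers of another class its log2 fold change was -1.67 and the call was lost (adjusted p = 0.205).

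The 6 remaining lower genes that are not mitochondrial came from few cells. Sparc gave 230 and 178 UMIs in WT tumours against 0 and 3, but 96.1% and 94.4% of the WT UMIs lay in 1 cell of each tumour. For Col1a2 these shares were 90.1% and 94.4%, for Col1a1 75.7% and 97.0%, for Col3a1 74.7% and 91.8%, and for Dcn 90.5% and 100%. Barcodes with at least 5 fibroblast marker UMIs held 91.8% to 100% of the WT UMIs of these 5 genes in each tumour. All but Sparc are themselves on that marker list. Tcf4, a transcription factor of plasmacytoid dendritic cells, gave 71 and 45 UMIs in WT tumours and 0 in both IL1α-/- tumours, with 42.3% and 51.1% in 1 cell. Of its WT UMIs, 87.3% and 91.1% lay in barcodes with at least 5 dendritic cell marker UMIs and 4.23% and 6.67% in those with as many fibroblast ones. Tcf4 was at least 5.11-fold lower against 3 counts over both sums, as Dcn was at least 4.49-fold lower. Once barcodes with at least 5 UMIs of another class were left out, a step chosen after these values were seen, all 6 were too low to be tested, and 24 genes were called in all, 20 of them among the 36.

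The 3 mitochondrial genes mt-Co3, mt-Cytb and mt-Atp6 were lower at log2 fold changes of -0.92 to -1.08 (adjusted p = 0.0227 to 0.0491) and were chosen for mention after their values were seen. The median regulatory T cell had 2.93% and 2.86% mitochondrial UMIs in WT tumours and 1.82% and 1.97% in IL1α-/- tumours. The same order held over all kept barcodes, at 3.26% and 3.32% against 2.30% and 2.45%. The part of overall RNA quality in these calls was not tested.

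**Figure D3:**
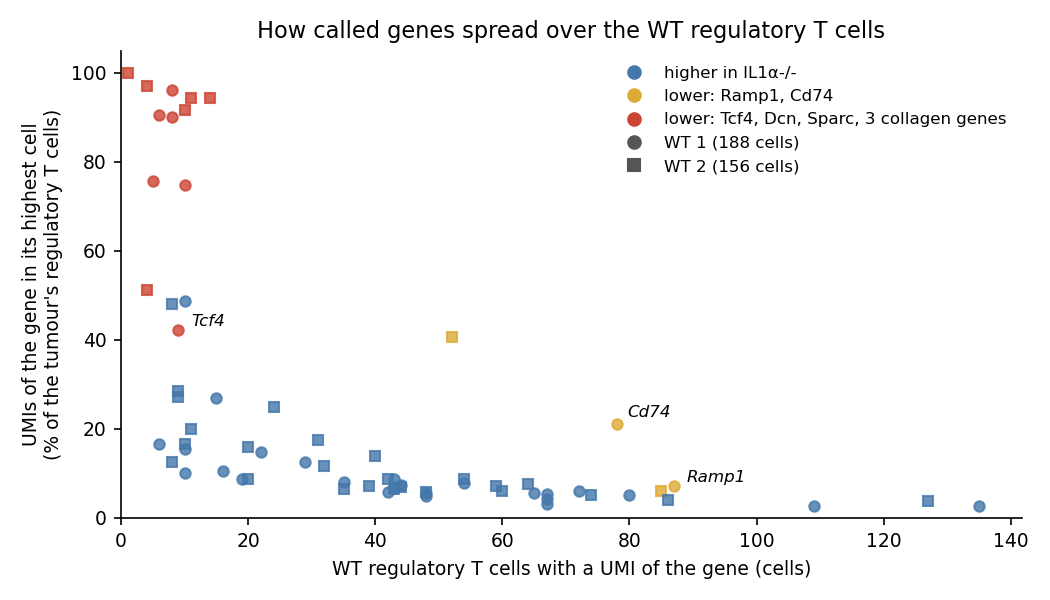
For each called gene that is not mitochondrial, the number of WT regulatory T cells with a UMI of it (x axis, cells) and the percent of its UMIs that lay in its single highest cell (y axis), with circles for WT replicate 1 and squares for WT replicate 2. Ramp1 is spread over 87 and 85 cells, while Sparc, Dcn and the collagen genes sit at the upper left with most UMIs in 1 cell.

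Among the higher genes, Irs2, which relays insulin and growth factor signals, had 13 and 15 UMIs in 10 and 11 WT cells and 6 and 27 UMIs in 6 and 19 IL1α-/- cells. Its level was 23.0 and 24.7 CPM against 151 and 222 CPM (log2 fold change 3.06, SE 0.40, adjusted p = 0.00232). Fosl2, an AP-1 subunit, stood at 227 and 142 CPM against 629 and 674 CPM (log2 fold change 1.84, SE 0.29, adjusted p = 0.00722). Dgat1, which makes triglycerides, stood at 103 and 92.2 CPM against 277 and 394 CPM (log2 fold change 1.87, adjusted p = 0.00722). For these 3 genes the IL1α-/- values lay well above both WT values, and without IL1α-/- replicate 2 the fold changes kept their sign but not the call (adjusted p = 0.0622 to 0.349).

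Irf4, which effector regulatory T cells need, stood at 40.7 and 18.1 CPM against 176 and 173 CPM (log2 fold change 2.56, SE 0.45, adjusted p = 0.0131) on 23, 11, 7 and 21 UMIs. Without IL1α-/- replicate 2 its adjusted p was 0.160. Dusp10, a phosphatase that switches off stress kinases, stood at 47.8 and 23.1 CPM against 176 and 197 CPM. Vps37b, a part of the endosomal sorting machinery, stood at 374 and 244 CPM against 680 and 1257 CPM. Lmna, the gene of nuclear lamins A and C, stood at 46.1 and 93.9 CPM against 302 and 255 CPM, Metrnl, a secreted hormone-like protein, at 33.7 and 37.9 CPM against 101 and 181 CPM, and Samd11 at 17.7 and 13.2 CPM against 75.5 and 123 CPM. Adjusted p for these 5 was 0.0131 to 0.0278. Eif3j1, a subunit of a translation initiation factor, rose by 3.20 on the log2 scale, but its reads may be divided with the near-identical Eif3j2 and the value is uncertain. Cxcl10 stood at 76.2 and 44.5 CPM against 151 and 411 CPM (log2 fold change 2.44, adjusted p = 0.00722) on few cells, as above.

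Icos was the 1 of 15 tested checkpoint and costimulatory receptors that passed, where 0.504% of all tested genes were called higher and 0.222% lower. It stood at 682 and 697 CPM in WT tumours against 1359 and 1504 CPM in IL1α-/- tumours (log2 fold change 1.06, SE 0.23, adjusted p = 0.0475), and was found in 71.8% and 81.4% against 84.6% and 83.9% of the cells. The call stood near the threshold and was made in 4 of 15 other settings, with a log2 fold change of 0.82 to 1.14 in all 15. It was lost without WT replicate 1, WT replicate 2 or IL1α-/- replicate 2 (adjusted p = 0.185, 0.271 and 0.336), without doublets (adjusted p = 0.0693) and without the barcodes holding markers of another class (adjusted p = 0.103). Tnfrsf9 stood at 553 and 507 CPM against 856 and 1126 CPM (log2 fold change 0.94, adjusted p = 0.102).

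The called genes were also measured around the regulatory T cells. For 21 of the 25 higher genes, both IL1α-/- tumours also lay above both WT tumours in the UPM of the Foxp3-negative CD4 T cells, as 24.3% of the 4959 tested genes did there. Icos, for example, stood there at 419 and 396 UPM in WT tumours against 1088 and 979. For 22 of the 25 the same held in free RNA, against 38.8% of the tested genes. Fosl2 stood there at 163 and 148 UPM against 417 and 638 and Vps37b at 190 and 155 against 769 and 817. Of the 11 lower genes, 4 (Ramp1 and the 3 mitochondrial genes) had both IL1α-/- tumours below both WT tumours in the Foxp3-negative CD4 T cells and in free RNA, where 25.1% and 16.7% of the tested genes did. The other 7, Cd74 and the 6 genes of few barcodes, overlapped in both. None of the 36 genes passed the test that its genotype difference differed between the 2 kinds of cell, and the lowest adjusted p among them was 0.0626, for Sparc. At an unadjusted p under 0.05, 6 of the 25 higher and 8 of the 11 lower genes passed that test, against 6.17% of its 7388 genes. On simulated counts it called 27.55% of 98 genes changed 4-fold and 5.38% of 93 changed 2-fold. A missed call therefore does not show that both kinds of cell changed alike. The part of free RNA in the levels of the regulatory T cells was not tested.

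**Figure D4:**
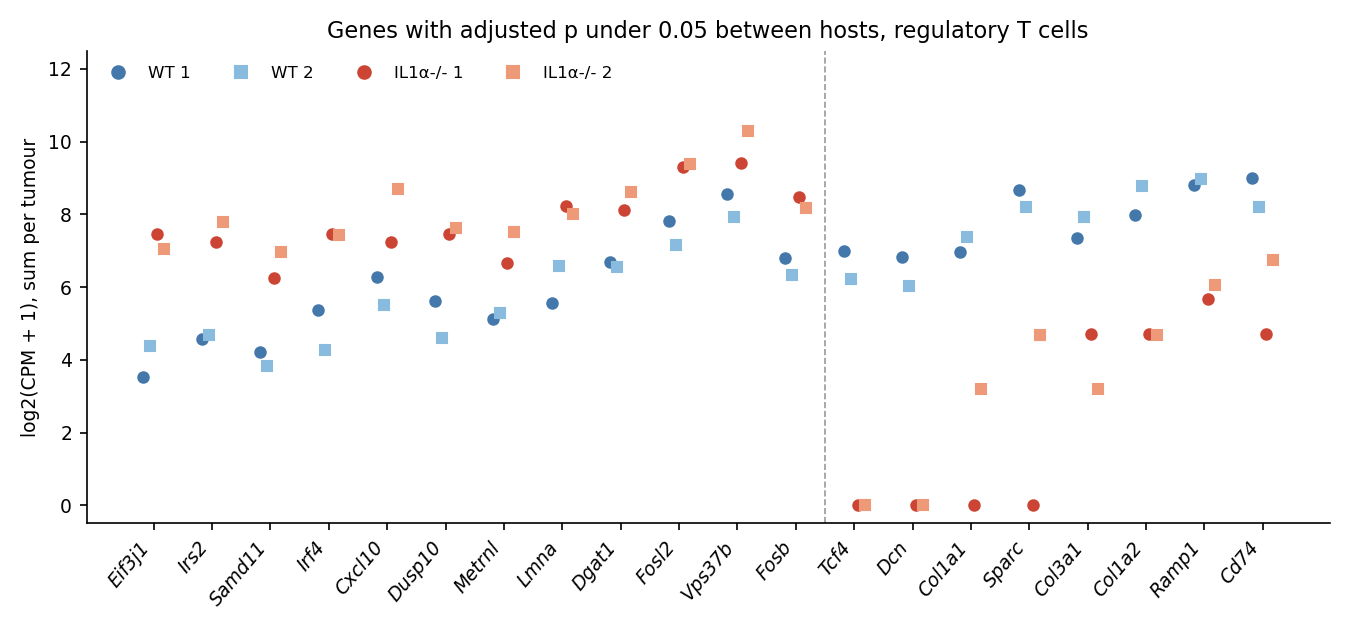
Level of 12 higher and 8 lower genes as log2(CPM + 1) of the regulatory T cell counts summed per tumour (y axis), for WT (blue) and IL1α-/- (red) tumours, with the higher genes left of the dashed line. The 2 genotypes do not overlap for any gene shown, which the choice of these genes required, and zeros in the IL1α-/- tumours appear among the genes that lay mostly in a few WT cells.

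The identity of the cells that remained was measured with the same list of identity genes. Of its 14 tested members besides Foxp3, none was called between genotypes, where 0.726% of all tested genes were. The median log2 fold change was 0.01 with 7 above 0, against -0.04 and 48.0% above 0 over all tested genes. Both IL1α-/- tumours lay above both WT tumours for 3 of the 14 and below them for 2, against 19.3% and 27.3% of all tested genes. Il2ra stood at 987 and 911 CPM in WT tumours and 1082 and 1044 CPM in IL1α-/- tumours (log2 fold change 0.16, SE 0.24, adjusted p = 0.836). Ikzf2 stood at 2125 and 1463 CPM against 1787 and 2202 CPM (log2 fold change 0.17, SE 0.24, adjusted p = 0.831), and Tnfrsf4 at 1312 and 1295 CPM against 881 and 1126 CPM (log2 fold change -0.35, SE 0.24, adjusted p = 0.579). Ctla4 stood at 1337 and 931 CPM against 1107 and 2235 CPM, with the groups overlapping (log2 fold change 0.62, SE 0.29, adjusted p = 0.387). A 2-fold change would seldom be called at this depth, so these values bound large changes only. Foxp3 itself, which chose the cells, stood at 601 and 502 UPM against 928 and 817. Each cell had to hold a Foxp3 UMI, so the rule itself gives shallower cells a higher level. The median cell held 2566.5 and 3429.5 UMIs in WT tumours against 1473 and 1858 in IL1α-/- tumours. These values therefore do not compare Foxp3 per cell between genotypes.

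Effector and tissue genes were uneven between the 2 IL1α-/- tumours. Of 17 tested genes of effector and tumour regulatory T cells, 2 (Irf4 and Icos) were higher and none was lower, with a median of 0.52. Over all tested genes, 0.504% were called higher and 0.222% lower. Areg gave 93 and 103 UMIs in WT tumours and 2 and 172 in IL1α-/- tumours, so that 165 and 170 CPM stood against 50.3 and 1413 CPM (log2 fold change 2.38, SE 0.54, adjusted p = 0.0580). IL1α-/- replicate 2 alone was high, and without it the fold change was -1.86 (adjusted p = 0.462). Gzmb stood at 97.4 and 311 CPM against 327 and 682 CPM (log2 fold change 1.43, adjusted p = 0.162), and Klrg1 at 175 and 180 CPM against 50.3 and 173 CPM (log2 fold change -0.36, adjusted p = 0.757). Gata3 stood at 287 and 201 CPM against 50.3 and 164 CPM (log2 fold change -0.88, adjusted p = 0.356). Il10, Tgfb1, Lag3, Havcr2, Pdcd1, Entpd1 and Nt5e had adjusted p of 0.540 to 0.960, and of 11 tested suppressive molecules none was called.

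Receptors of the interleukin 1 family were examined because the hosts lacked one of its cytokines. Il1r1, the receptor that binds interleukin 1α, gave 5, 1, 0 and 0 UMIs in the regulatory T cells, or 8.08, 1.504, 0 and 0 UPM. Free RNA of the same libraries held 12.4, 10.7, 9.41 and 13.9 UPM. The sums of the IL1α-/- tumours held only 39883 and 129713 UMIs. Counts this low cannot place the cells below free RNA or show that they lack the receptor. Il1rap, the partner of Il1r1, gave 4, 5, 2 and 2 UMIs and the decoy receptor Il1r2 gave 6, 9, 0 and 2. These 3 were too low to test between genotypes. Il1r2 was lower than in Foxp3-negative CD4 T cells at a log2 difference of -1.43 (adjusted p = 0.0223), and at -1.54 without passing when WT replicate 1 was left out (adjusted p = 0.0614). Il1rl1 stood at 368 and 290 CPM in WT tumours against 327 and 814 CPM in IL1α-/- tumours, with overlapping groups (log2 fold change 0.94, adjusted p = 0.205), and at -0.14 without IL1α-/- replicate 2. Il18r1, the receptor of interleukin 18, stood at 186 and 211 CPM against 378 and 279 CPM (log2 fold change 0.65, adjusted p = 0.371), and the adaptor kinase gene Irak2 at 24.8 and 32.9 CPM against 75.5 and 107 CPM (log2 fold change 1.75, adjusted p = 0.131). Of 8 tested members of the family and its adaptors none was called, where 0.726% of all tested genes were. Of the 8, 7 were above 0, against 48.0% of all tested genes. Both IL1α-/- tumours lay above both WT tumours for 5 of them, against 19.3% of all tested genes.

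Signalling targets gave 1 call per list, where 0.504% of all tested genes were called higher. Of 14 tested genes of antigen receptor stimulation and the immediate early response, all 14 were above 0 with a median of 0.60, and 1 was called, Fosb, at 110 and 79.1 CPM against 352 and 288 CPM (log2 fold change 1.71, SE 0.32, adjusted p = 0.0209). Fos stood at 163 and 189 CPM against 352 and 394 CPM (log2 fold change 1.11, adjusted p = 0.0862) and Nr4a3 at 333 and 180 CPM against 805 and 444 CPM (log2 fold change 1.18, adjusted p = 0.148). Fos in free RNA stood at 474 and 361 UPM in WT libraries against 722 and 971 in IL1α-/- libraries. Of 13 tested NF-κB genes, 12 were above 0 with a median of 0.60 and 1 was called, the adhesion gene Icam1, at 106 and 125 CPM against 176 and 403 CPM (log2 fold change 1.51, adjusted p = 0.0475). Without the barcodes holding markers of another class, Icam1 was at 1.48 and its call was lost (adjusted p = 0.0846). Tnfaip3, the feedback inhibitor A20, stood at 602 and 384 CPM against 780 and 1652 CPM (log2 fold change 1.38, adjusted p = 0.0580). Of 12 tested interferon-stimulated genes, 11 were above 0 with a median of 0.71, and Irf1 was called, at 188 and 252 CPM against 378 and 896 CPM (log2 fold change 1.66, adjusted p = 0.0236). Calls of Fosb, Icam1 and Irf1 were lost without IL1α-/- replicate 2, where only 26 cells stood for the genotype (adjusted p = 0.114, 0.767 and 0.595).

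The remaining lists held 1 further call, where 0.504% of all tested genes were called higher. In the interleukin 2 and STAT5 pathway 12 of 15 tested genes were above 0 (median 0.36), 8 had both IL1α-/- tumours above both WT tumours, against 19.3% of all tested genes, and none was called, and Socs1, Pim1 and Stat5b had the lowest p (log2 fold changes 1.15, 0.86 and 1.10, adjusted p = 0.0919, 0.112 and 0.170). Of 9 resting and recirculating T cell genes 1 was called, the chromatin organiser Satb1, at 145 and 93.9 CPM against 277 and 386 CPM (log2 fold change 1.55, adjusted p = 0.0347). Its call was lost without WT replicate 2 or IL1α-/- replicate 2, the lowest and the highest of the 4 values. S1pr1, the receptor that lets T cells leave tissue, stood at 101 and 92.2 CPM against 277 and 214 CPM (log2 fold change 1.27, adjusted p = 0.0919). Of 13 trafficking receptors 11 were above 0 (median 0.40) and 6 had both IL1α-/- tumours above both WT tumours, with none called. None of 10 glycolysis and hypoxia genes and 8 heat shock genes was called either, and the heat shock list had the 1 median below that of all tested genes, at -0.29.

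**Figure D5:**
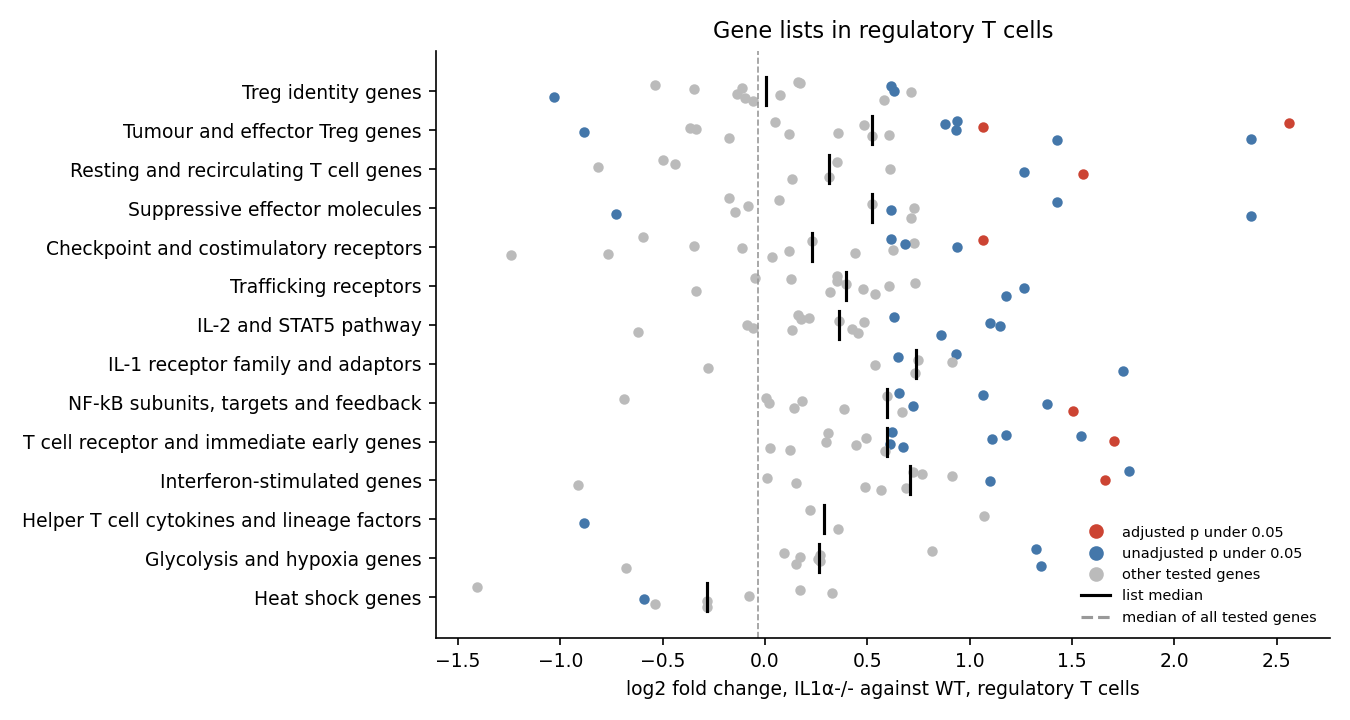
Log2 fold change of each tested gene between IL1α-/- and WT regulatory T cells (x axis) in 14 gene lists (y axis), with called genes in red, genes at an unadjusted p under 0.05 in blue and others in grey. Black bars are list medians and the dashed line is the median of all 4959 tested genes, and 13 of the 14 list medians lie to its right, with 7 red points that include Icos in 2 lists.

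Whether a genotype difference was larger in the regulatory T cells than in the Foxp3-negative CD4 T cells was tested directly as an interaction. Of 7388 genes, 3 passed, all with a lower value in regulatory T cells (0.0406%): Fn1, Igkc and Ccl5. At an unadjusted p under 0.05, 456 genes (6.17%) passed. Fibronectin, Fn1, lay to 95.2% and 91.9% in 1 WT cell of each tumour. Igkc, the antibody light chain, gave 1864 UMIs in the Foxp3-negative CD4 T cells of IL1α-/- replicate 1 against 14, 21 and 1 in those of the other tumours, while the regulatory T cells held 22, 11, 0 and 0. Without that tumour the log2 difference of differences was -3.70 and was not called (adjusted p = 0.916), in place of -14.29. Ccl5, a chemokine of effector T cells, stood at 731 and 230 UPM in regulatory T cells of WT tumours and 1555 and 301 in those of IL1α-/- tumours, against 267 and 232, and 2725 and 915, in the Foxp3-negative CD4 T cells. The genotype difference was lower in the regulatory T cells at a log2 difference of differences of -2.12 (SE 0.36, adjusted p = 0.0394), and missed the threshold at -1.35, -2.44 and -1.87 without WT replicate 1, IL1α-/- replicate 1 or IL1α-/- replicate 2 (adjusted p = 0.123, 0.523 and 0.303). It was called without WT replicate 2 (-2.79, adjusted p = 2.17e-10), without doublets (-2.08, adjusted p = 7.54e-15) and without barcodes holding markers of another class (-2.34, adjusted p = 1.46e-20). The closest genes in the other direction did not pass: Itgae by 2.03 (adjusted p = 0.296), Id2 by 1.13, Gclc by 2.42, Map3k8 by 2.00 and Gzma by 2.90 (adjusted p = 0.336 to 0.457). Sparc and Meg3 came next among the lower genes (adjusted p = 0.0626 for both). Il10 differed by -2.50 (adjusted p = 0.230), with 36.1 and 55.0 UPM in Foxp3-negative CD4 T cells of WT tumours against 81.0 and 283 in those of IL1α-/- tumours.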

How the data were processed

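Single-cell RNA of 4 tumours was captured with a 3' droplet kit, per the labels' protocols, and processed by the authors with Cell Ranger 3.1.0 against mm10, per the submitters' processing notes. The values are raw UMI counts per gene and barcode as deposited by the authors, in unfiltered matrices, and the 31053 mouse genes were used. The cells and the gene lists were chosen with earlier results of these data known. Barcode limits, thinning to 1000 UMIs and sums per tumour were computed in Python 3.11.15. Summed counts of 39883 to 664961 UMIs per tumour were tested with edgeR 4.0.16 (filterByExpr, TMM, quasi-likelihood test, Benjamini-Hochberg adjustment over all tested genes, R 4.3.3). The comparison with Foxp3-negative CD4 T cells and the interaction carried the tumour as a block, and genes of the selection rules were left out of the tests. Shares were compared by an exact permutation test. The tests were checked on simulated data of the same totals.

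Named were a set list of regulatory T cell genes, up to 12 genes in each direction with the largest fold change among called genes with a mean of at least 20 CPM, the 5 lowest p of each sign in the interaction, and the 3 lowest p of each gene list. Doublets were kept, and removing the highest Scrublet scores (0.8% per 1000 cells) was an alternative. Leaving out cells with at least 5 UMIs of another class was an alternative chosen after seeing the data. Other alternatives were DESeq2 1.42.0, other size factors, filters and cell limits, the replicate number as a block, and each tumour left out. Gene positions came from GENCODE vM21, where 30934 genes matched. Free RNA was read from barcodes of at most 100 UMIs. A gene of that set list is not reported here.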

Additional observations from a re-analysis of the deposited data

Results flagged for a closer look

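For 3 genes the difference between host genotypes itself differed between regulatory T cells and Foxp3-negative CD4 T cells by the interaction test of edgeR. Fn1 differed by -5.37 on the log2 scale, and by -0.18 (adjusted p = 1) without cells holding at least 5 UMIs of another class. Igkc differed by -14.29, and by -3.70 (adjusted p = 0.916) without IL1α-/- replicate 1. Ccl5 differed by -2.12, with 379 and 639 UPM (UMIs per 1000000 UMIs) in free RNA of the WT libraries and 3366 and 2432 in that of the IL1α-/- libraries, and the part of free RNA in this difference was not tested.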

How the results depend on the processing

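Of the recomputed values of single genes, 1213 kept their direction and side of the threshold, 151 lost a call, 56 gained one and 37 changed sign. The cause was not tested for any of them, except that thinning the sums left 682 genes to test. The lower shares in IL1α-/- tumours kept their sign under each setting, from -1.34 to -3.49 points of kept barcodes, -4.95 to -12.9 of Cd3 cells and -16.6 to -21.6 of CD4 T cells.

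The 36 genes called between genotypes became 18 with DESeq2 (8 higher, 10 lower, 14 shared), 103 without a low-count filter, 64 with the size factors of DESeq2 and 0 with sums thinned to the smallest total. Leaving out each tumour gave 11 to 173. The 553 genes called against Foxp3-negative CD4 T cells became 316 to 537 when a tumour was left out. The 3 interaction calls became 8 with at least 2 Foxp3 UMIs, 8 with at least 1000 UMIs per cell, 5 with at most 10% mitochondrial UMIs, 46 without a low-count filter, 11 without Lyz2, Cd79a or C1qb UMIs, 18 without cells scored as doublets, 24 without cells holding another class's markers, and 0 to 36 when a tumour was left out.

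The replicate numbers were not shown to pair the tumours: deviations of same-numbered tumours correlated at r = 0.0345 across 4964 genes. With that number added as a block term, 80 genes were called between genotypes (49 higher, 31 lower, with all 36 among them) and 51 in the interaction, and the mean within-pair differences in share were -2.96, -9.31 and -20.1 points.

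None of the genes whose sign changed between genotypes had been called. Leaving out each tumour in turn gave Ikzf2 -0.14 to 0.39, Ctla4 -0.17 to 0.99, Tnfrsf18 -0.46 to 0.020, Pdcd1 -1.62 to 0.57, Il10 -0.46 to 0.11, Tgfb1 -0.27 to 0.45, Areg -1.86 to 3.08, Nt5e -0.55 to 0.038, Il1rl1 -0.14 to 1.31, Ccr7 -0.46 to 2.03, Lef1 -0.89 to 0.25 and Il7r -1.42 to 0.85. Havcr2 and Tcf7 gave values only when an IL1α-/- tumour was left out, -0.36 to 1.10 and -1.98 to 0.45, and none when a WT tumour was. With at least 2 Foxp3 UMIs, Pdcd1 was at 0.22, Lag3 at -0.77, Tgfb1 at -0.21, Il18r1 at -0.055 and Il7r at -0.11. Thinned sums put Tnfrsf18 at 0.35 and Il7r at -0.16, and Tgfb1 was at -0.026 with at least 1000 UMIs per cell and at -0.070 without a low-count filter. Against Foxp3-negative CD4 T cells, leaving out each tumour gave Lag3 -0.35 to 0.31, Il10 -0.70 to 0.60, Areg -0.20 to 0.70 and Il7r -0.43 to 0.20. There Lag3 was at -0.016 with at least 1000 UMIs per cell and -0.028 without a low-count filter, and Il10 at 0.026 with at least 2 Foxp3 UMIs. The genotype comparison is limited by the 26 regulatory T cells and 39883 UMIs of IL1α-/- replicate 1.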
